A study of Mus musculus with 62 samples.

Results

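The nuclear-encoded subunits of the mitochondrial respiratory chain were followed in 3 tissues of mice dosed with polychlorinated biphenyls (PCBs, persistent chlorinated industrial chemicals). Members were chosen by gene name and not by their values: the protein-coding genes whose mouse symbol begins with Ndufa, Ndufb, Ndufc, Ndufs, Ndufv, Uqcr, Cox4 to Cox8 or Atp5, together with Sdha, Sdhb, Sdhc, Sdhd and Cyc1, with pseudogenes left out. The rule gave 97 genes: 41 named for complex I, 8 complex I assembly factors (Ndufaf1 to Ndufaf8), 4 of complex II, 9 of complex III, 18 of complex IV and 17 of the ATP synthase. The count tables listed 94 of them among 18821 genes. Ndufb1, Ndufb4b and Cox8c were listed in none of the tables, and Ndufs5 and Cox7b2 were not listed in that of the liver. The test could be run on 88 members in liver, 91 in prefrontal cortex and 91 in striatum. The members left out for low counts were Cox4i2, Cox6a2, Cox6b2 and Cox8b in liver, and Ndufs5, Cox7b2 and Cox8b in both brain regions.

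The animals were female mice of the inbred strain C57BL/6. They received the MARBLES mixture, a PCB mixture given by mouth, at 0.1, 1 or 6 mg/kg, or vehicle alone (0 mg/kg). RNA was sequenced from liver (4, 4, 6 and 6 libraries for vehicle, 0.1, 1 and 6 mg/kg) and from punches of prefrontal cortex and of striatum (4, 5, 6 and 6 libraries each), 62 libraries in all. Age, length of dosing and the vehicle's makeup are not given in the sources used here. The sources do not state whether a library is 1 animal, although sample titles carry a number that recurs across tissues. Libraries are called here by that number as "animal 54", and p-values measure the spread between these libraries only.

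The respiratory chain passes electrons from NADH (complex I) or succinate (complex II) through ubiquinone to complex III, through cytochrome c to complex IV, and on to oxygen. The proton gradient built on the way drives the ATP synthase. Most subunits are encoded in the nucleus, while some of the catalytic ones of complexes I, III and IV and part of the ATP synthase's membrane sector come from mitochondrial DNA. Those encoded in mitochondrial DNA were not analysed here. Complex IV is the main place of tissue isoforms: Cox6a1, Cox7a2 and Cox8a are the widely used forms, and Cox6a2, Cox7a1 and Cox8b are the forms of heart and skeletal muscle.

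Most of these transcripts are short, and this touches every comparison that follows. The median transcript length was 758 bases over the 95 members with a length (range 315 to 3632 bases), and 52.6% of members were at most 800 bases long, which is called short here. Among all genes tested in prefrontal cortex the median was 2916 bases and 4.28% were short. The members' medians and counts are therefore set beside the other short genes or beside another fit, called the offset fit. It has an offset for transcript length and GC content in each library. Many single genes are set beside it too, but a missing offset value does not mean that it left the gene unmoved. In addition, 19 of the 97 members overlap another gene on the genome, among them Cox7a2 (with Tmem30a), Cox4i2 (with Bcl2l1), Atp5d (with Cbarp) and Ndufs1 (with Ino80dos). Whether the counting used strand, and how reads with several matches were handled, is not given in the sources used here, so members with overlaps are uncertain. Atp5o, Ndufb2 and Ndufs5 had low counts for their complex, and whether copies elsewhere in the genome share their reads was not tested.

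Total counts were 7381179 to 10203247 in liver libraries, 8722232 to 12135200 in prefrontal cortex and 8283032 to 12019651 in striatum. The tissues carried the markers of their labels. The summed level of the hepatocyte marker list was 92700 to 107000 counts per library of standard size (CPM) in the 4 vehicle livers, 0.105 to 0.342 CPM in prefrontal cortex and 0.0997 to 0.674 CPM in striatum. The neuron list summed to 4960 to 6100 CPM in prefrontal cortex, 3010 to 3850 CPM in striatum and 7.94 to 36.8 CPM in liver. Libraries of whole tissue hold many cell types, and fewer cells of a type cannot be told apart from less RNA per cell.

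Promoter sequences are shown because respiratory chain genes are known as a group whose promoters often hold the binding motif of nuclear respiratory factor 1 (NRF1). RefSeq promoter windows of build GRCm38.p6, from 250 bases before to 50 bases after the annotated start, matched 78 members with 83 windows. The motif, searched on both strands as GCGC, any base, T and GCGC in a row, was in 20 of them (24.1%). All genes held it in 4.6% of windows, protein-coding genes in 6.38% and the cytosolic ribosomal proteins in 7.32%. By group it was in 8 of 37 windows of complex I, 2 of 7 of its assembly factors, 2 of 3 of complex II, 1 of 5 of complex III, 1 of 13 of complex IV and 6 of 18 of the ATP synthase. The ETS-family motif CCGGAAG was in 22.9% of the members' windows, 8.86% of all windows, 11.6% of those of protein-coding genes and 32.9% of those of cytosolic ribosomal proteins. The YY1 motif ATGGCGGC was in 9.64% of the members' windows, 2.24% of all and 3.02% of those of protein-coding genes, and 7 of its 8 windows belonged to complex I genes. A match is a description of letters, not a shown binding site.

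For 5 groups, 100 bases are shown around the match of the member with the highest mean CPM in vehicle liver among those holding the NRF1 motif wholly before the annotated start, which leaves out complex III. They are followed by the 2 Cox7a isoforms, which have no match. The stretches are read 5′ to 3′ on the gene's strand, and capitals mark the NRF1 motif on either strand. They lie at chr2:36049339-36049438 (Ndufa8, minus strand), chr4:24897925-24898024 (Ndufaf4, plus), chr13:74350284-74350383 (Sdha, minus), chr5:115349066-115349165 (Cox6a1, minus), chr2:10080433-10080532 (Atp5c1, minus), chr9:79759854-79759953 (Cox7a2, minus) and chr7:30184071-30184170 (Cox7a1, plus).
Ndufa8: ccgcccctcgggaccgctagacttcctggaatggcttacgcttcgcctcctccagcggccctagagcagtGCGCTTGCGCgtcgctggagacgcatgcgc
Ndufaf4: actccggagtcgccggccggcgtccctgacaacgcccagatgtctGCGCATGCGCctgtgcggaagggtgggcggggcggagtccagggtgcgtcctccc
Sdha: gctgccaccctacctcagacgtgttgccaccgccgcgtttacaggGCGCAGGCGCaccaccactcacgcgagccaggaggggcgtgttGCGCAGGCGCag
Cox6a1: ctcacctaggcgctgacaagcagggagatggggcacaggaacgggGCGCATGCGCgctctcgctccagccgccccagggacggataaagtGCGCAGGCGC
Atp5c1: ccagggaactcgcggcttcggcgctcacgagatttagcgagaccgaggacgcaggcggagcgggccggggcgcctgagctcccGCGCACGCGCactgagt
Cox7a2: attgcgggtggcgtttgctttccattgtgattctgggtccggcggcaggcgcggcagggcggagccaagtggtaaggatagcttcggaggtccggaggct
Cox7a1: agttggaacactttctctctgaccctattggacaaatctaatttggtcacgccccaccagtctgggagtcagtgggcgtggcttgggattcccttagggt
Sdha and Cox6a1 hold 2 copies each within the printed stretch, and Ndufa8, Ndufaf4 and Atp5c1 hold 1. The Cox7a2 and Cox7a1 stretches are the bases directly before the annotated start.

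The first comparison asked how the respiratory chain's transcripts differ between liver and brain without PCB, and used the 12 vehicle libraries on 1 common scale. Members were nearly all higher in liver than in either brain region after the libraries were scaled to each other (TMM). The fold changes rest on that scaling. Before it, members held on average 1.9% of the counts in vehicle livers, 0.978% in prefrontal cortex and 1.05% in striatum. That gap, over summed counts, is smaller than the median fold changes below. Of 91 members tested against prefrontal cortex, 83 were higher in liver and 5 lower (edgeR's quasi-likelihood test, Benjamini-Hochberg adjusted over 14161 genes). Of all genes, 39.4% were called higher and 45.5% lower. The median log2 fold change of members was 2.10, that of all genes −0.17, and that of the 517 other short genes 1.46. Against striatum, 83 members were higher in liver and 6 lower, beside 39.4% and 45.5% of all genes, with a median of 2.12. Cox4i2, Cox6a2 and Cox6b2 entered these counts through the brain libraries alone. Over the 88 members that passed the filter on low counts in each tissue by itself, 83 were higher and 3 lower against either brain region, with medians of 2.13 (range −1.23 to 4.12) and 2.18.

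The offset fit moved these medians by more than 1.5 times. With it the median against prefrontal cortex was 0.52 (0.54 over the 88), with 59 members higher and 11 lower (8 lower of the 88) beside 39% and 45.4% of all genes, and the other short genes had a median of −0.25. Against striatum it was 0.61 (0.63 over the 88), with 66 members higher and 11 lower (66 and 8 of the 88) beside 38.7% and 45.5%. In each of the 2 contrasts 3 of the 88 members were called in both fits with opposite signs. Without the offset, the 46 short members had a median of 2.32 and the 45 longer ones 1.87. With it the medians were 0.46 and 0.58. In both fits the medians of the short and of the longer members lay above 0.

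**Figure D1:**
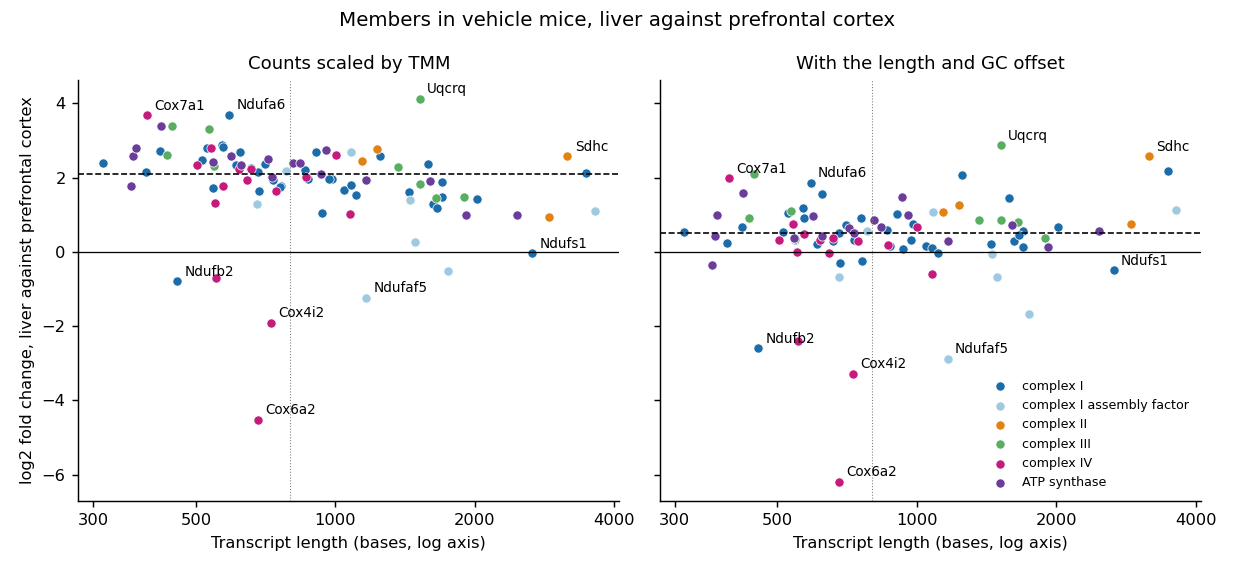
Log2 fold change of each member in vehicle liver against vehicle prefrontal cortex (y axis) by transcript length in bases (log x axis), without (left) and with (right) the offset for length and GC content; colours are complexes, the dashed line is the members' median and the dotted line marks 800 bases. The median moves from 2.10 on the left to 0.52 on the right.

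Without the offset every complex had most of its members higher in liver than in prefrontal cortex, where 39.4% of all genes were higher, and with it the counts fell in all but complexes II and III. In the ATP synthase 17 of 17 members tested were higher (median log2 fold change 2.39), and 14 higher with 1 lower in the offset fit (0.64). In complex III it was 9 of 9 in both fits (2.30 and 0.86) and in complex II 4 of 4 in both (2.51 and 1.17). Complex I had 36 higher and 1 lower of 38 (1.96), and 22 higher and 2 lower in the offset fit (0.47). Complex IV had 12 of the 12 that passed the filter in both tissues (2.12), and 7 higher and 1 lower in the offset fit (0.31). The complex I assembly factors, which are no part of the finished enzyme, had 5 higher and 2 lower of 8, and 3 higher and 4 lower in the offset fit, and their median changed sign (1.20 and −0.36).

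Without the offset the 10 largest differences from prefrontal cortex were spread over complexes I, III and IV and the ATP synthase. In the offset fit Uqcrq was still first, followed by Sdhc of complex II. Uqcrq (Entrez 22272), a small subunit of complex III, stood at 2140, 1380, 1130 and 890 CPM in the vehicle livers of animals 8, 7, 4 and 3, in that order throughout. It stood at 91.8, 77.9, 71.1 and 77.7 CPM in prefrontal cortex and 82.7, 94.9, 85.2 and 98.2 CPM in striatum. The lowest liver was far above the highest brain library, while the livers spread more than the brain libraries did. The log2 fold change was 4.12 against prefrontal cortex (SE 0.233, edgeR adjusted p = 2.11e-11; 2.87 in the offset fit) and 3.94 against striatum (SE 0.231). Uqcrq overlaps Gdf9 by 58 bases.

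Ndufa6 (Entrez 67130), an accessory subunit of complex I, stood at 743, 526, 466 and 387 CPM in the livers and between 33.4 and 51.6 CPM in all 8 brain libraries. Its log2 fold change against prefrontal cortex was 3.69 (SE 0.19, edgeR adjusted p = 5.99e-12; 1.86 in the offset fit). Atp5e, the epsilon subunit of the ATP synthase's catalytic head, stood at 1090, 678, 531 and 349 CPM in the livers and 74.6, 64.1, 56.9 and 57.8 CPM in prefrontal cortex. Animal 8 had the highest liver value of all 3 genes and animal 3 the lowest, and no liver overlapped a brain library. Further members at the top against prefrontal cortex, each with its offset value after it, were Uqcr11 (3.40, 2.10) and Uqcrb (3.31, 1.11) of complex III, Ndufs6 (2.87, 1.17) and Ndufa2 (2.83, 0.92) of complex I, Cox7c (2.81, 0.74) of complex IV and Atp5k (2.80, 0.98) of the ATP synthase. Against striatum the top also held Atp5mpl (2.94, 0.73) and Uqcr10 (2.82, 1.20).

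A few members went the other way or did not differ. Ndufaf5, an assembly factor that modifies a core subunit, stood at 9.92, 8.33, 9.17 and 8.58 CPM in liver and at 23.6, 18.2, 19.7 and 22.8 CPM in prefrontal cortex. All 4 livers were below all 8 brain libraries, at a log2 fold change of −1.23 (standard error 0.163, edgeR adjusted p = 1.88e-06; −2.88 in the offset fit). Ndufaf7, a methyltransferase of complex I assembly, was lower by a small margin (−0.52, SE 0.125, edgeR adjusted p = 9.28e-04; −1.67 in the offset fit). Ndufb2 was called lower (−0.79, SE 0.272, edgeR adjusted p = 0.0127), with 11.6, 4.96, 5.24 and 4.05 CPM in liver and 13.2, 9.80, 9.16 and 11.8 CPM in prefrontal cortex. The liver of animal 8 lay inside the brain range, and without it the value was −1.21. The −0.79 of Ndufb2 was the lowest value of a complex I member, and in the offset fit the lowest was −2.59.

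Ndufs1, the largest iron-sulphur subunit of complex I, stood at 100, 156, 146 and 140 CPM in liver and 133, 133, 142 and 145 CPM in prefrontal cortex. The tissues overlapped, and the log2 fold change of −0.03 did not pass the test (edgeR adjusted p = 0.825), while in the offset fit Ndufs1 was lower in liver (−0.49, edgeR adjusted p = 6.74e-04). Ndufaf3 did not pass either (0.27, edgeR adjusted p = 0.139) and was lower in the offset fit (−0.69, edgeR adjusted p = 4.58e-04).

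The 4 subunits of complex II, the succinate dehydrogenase shared with the citric acid cycle, differed in how far liver lay above brain. Sdhc (Entrez 66052), a membrane anchor with a transcript of 3171 bases, stood at 344, 367, 347 and 329 CPM in liver. Its levels were 60.3, 55.7, 56 and 59.4 CPM in prefrontal cortex and 60.6, 61.7, 69.7 and 74.8 CPM in striatum. The libraries of each tissue lay close together and no liver overlapped a brain library. The log2 fold change of 2.58 (standard error 0.112, edgeR adjusted p = 6.16e-13) was 2.58 in the offset fit too.

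Sdha, the flavin-bearing catalytic subunit, stood at 484, 763, 718 and 707 CPM in liver and 374, 356, 330 and 323 CPM in prefrontal cortex, a log2 difference of 0.95 (SE 0.142; 0.76 with the offset). Its livers were all above its brain libraries, with animal 8 the lowest of the livers, the reverse of that animal's place for the small subunits. Sdhb, the iron-sulphur subunit, had 2.44 (1.08 with the offset), and Sdhd, the second anchor, 2.77 (1.26). Per kilobase of transcript, liver held 230 ± 43.1 CPM of Sdha, 452 ± 102 of Sdhb, 109 ± 4.98 of Sdhc and 303 ± 56.1 of Sdhd (mean ± SD, n = 4). Prefrontal cortex held 119 ± 8.13, 83.1 ± 11.7, 18.2 ± 0.74 and 44.4 ± 1.66 CPM per kilobase in the same order. Sdha was thus second to lowest in liver and the highest of the 4 in prefrontal cortex.

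Levels of the isoforms were compared per kilobase of transcript in vehicle mice, on the common scale. The widely used forms made up nearly all of the transcripts in liver and in brain alike. Cox4i1 stood at 1570 ± 254 CPM per kilobase in liver, 501 ± 84.2 in prefrontal cortex and 497 ± 57.5 in striatum (mean ± SD, n = 4). Cox4i2, a form known from lung, stood at 0.307 ± 0.0958, 1.22 ± 0.636 and 1.74 ± 0.428. Cox6a1 stood at 1780 ± 413, 526 ± 78.3 and 507 ± 93.4 CPM per kilobase, and Cox8a at 1240 ± 305, 494 ± 49.6 and 441 ± 43. These levels are without the offset, and in the offset fit Cox8a was no longer higher in liver than in prefrontal cortex. Cox8b had 2 counts in all in the vehicle livers, 6 in prefrontal cortex and 13 in striatum.

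Cox7a1 and Cox6a2 are 2 forms of the same muscle set. Cox7a1 (Entrez 12865) stood at 4.96, 5.95, 6.06 and 6.80 CPM in liver and at 0.708, 0.384, 0.187 and 0.535 CPM in prefrontal cortex. In striatum it stood at 1.25, 0.166, 0.404 and 1.35 CPM. Its livers were all above the brain libraries, at a log2 fold change of 3.68 against prefrontal cortex (SE 0.476, edgeR adjusted p = 1.36e-06; 1.98 in the offset fit) and 2.89 against striatum (SE 0.432, edgeR adjusted p = 7.99e-06). Its liver level of 15.1 ± 1.92 CPM per kilobase was still small beside the 529 ± 105 of Cox7a2.

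Cox6a2 (Entrez 12862) had no count in 3 of the 4 vehicle livers and 0.793 CPM (4 counts) in that of animal 7. It stood at 4.55, 4.51, 4.67 and 4.05 CPM in prefrontal cortex and 4.42, 3.16, 3.39 and 4.29 CPM in striatum. All livers were below all brain libraries. Cox6a2 passed the filter on low counts through brain alone, so its levels are a description and no fold and no p is given for it. It overlaps Itgad by 70 bases.

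Cox4i2 had 1 to 2 counts in each vehicle liver (0.207, 0.198, 0.164 and 0.324 CPM), against 1.01, 0.288, 1.40 and 0.841 CPM in prefrontal cortex. The 2 tissues overlapped, with the cortex of animal 7 the low one. Cox6b2, known from testis, stood at 0.207, 0.198, 1.15 and 0.486 CPM in liver, against 1.11, 0.768, 0.841 and 0.841 CPM in prefrontal cortex and 0.834, 1.66, 1.94 and 1.75 CPM in striatum. The liver of animal 4 was above all 4 cortices. Both genes passed the filter through brain alone, so their levels are given as a description.

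**Figure D2:**
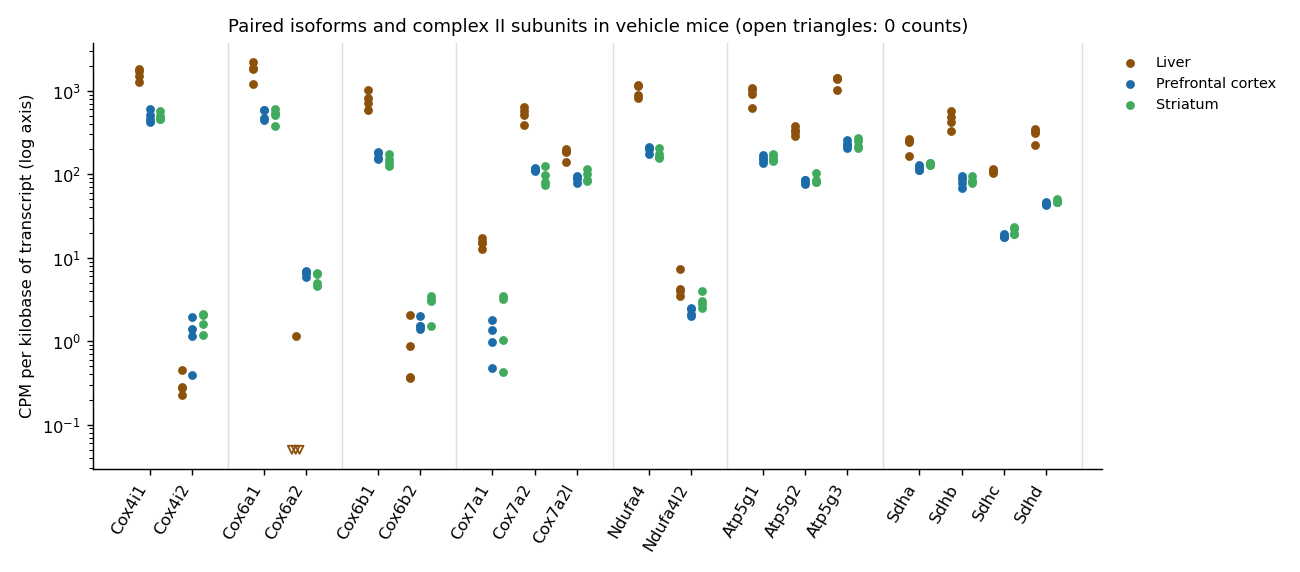
Level per kilobase of transcript (CPM per kilobase, log y axis) of the isoform sets and the 4 complex II genes in vehicle mice, 1 point per library and 4 per tissue; open triangles mark libraries with 0 counts. The widely used forms lie far above their muscle, lung and testis counterparts in each tissue, and Cox6a2 has 0 counts in 3 livers.

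Among the remaining isoform sets the 3 genes of the ATP synthase's c subunit, which encode the same mature protein, kept 1 order in all 3 tissues. Atp5g3 stood at 1310 ± 200 CPM per kilobase in liver, Atp5g1 at 910 ± 205 and Atp5g2 at 330 ± 39. In prefrontal cortex the levels were 230 ± 21.2, 153 ± 15.1 and 81.6 ± 4.7, and in striatum 237 ± 30.1, 156 ± 12.9 and 88.4 ± 11.1 CPM per kilobase. Ndufa4, named for complex I and known as a complex IV subunit, stood at 1010 ± 184 CPM per kilobase in liver and 199 ± 15.5 in prefrontal cortex. Its paralogue Ndufa4l2, linked to hypoxia, stood at 4.75 ± 1.73 and 2.27 ± 0.245. Cox7a2l, which joins complexes III and IV into supercomplexes, was higher in liver without the offset (log2 fold change 1.02) and lower with it (−0.61, edgeR adjusted p = 9.57e-05), so its direction depends on that step. Cox7a2 had 2.22 (SE 0.175, edgeR adjusted p = 1.98e-09; 0.36 with the offset).

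Across complexes, the median level per kilobase in liver was 644 CPM for the ATP synthase, 601 for complex III, 529 for complex IV, 266 for complex II and 256 for complex I, and 24 for the complex I assembly factors. In prefrontal cortex it was 119, 90.7, 114, 63.8, 61 and 13.6 in the same order, and in striatum 123, 97.1, 121, 66.2, 63.6 and 13.3. The assembly factors were lowest in each tissue. Within the ATP synthase the range was wide: Atp5e was highest in liver at 1570 CPM per kilobase, Atp5b in both brain regions at 510 and 544. Atp5o was lowest at 51.4, 9.7 and 8.41. Atp5o is the stalk subunit also called OSCP.

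Other mitochondrial gene lists were counted in the same contrast of liver with prefrontal cortex. Mitochondrial ribosomal proteins had 73 higher in liver and 4 lower of 77 (median log2 fold change 1.54, and 0.46 in the offset fit). The cytosolic ribosomal proteins, which are short and not mitochondrial, had 80 higher and 0 lower of 81 (2.33 and 0.73). Their median was above that of the respiratory chain in both fits. Assembly factors outside the member names had 30 higher and 3 lower of 36 (0.94 and 0.14), with Atpaf1, which assembles the ATP synthase's head, lower (−1.59). Enzymes of the citric acid cycle had 10 higher and 2 lower of 13 (0.73 and 0.16). Suclg2, the GTP-forming succinate-CoA ligase subunit, was much higher in liver (4.95, SE 0.134), and Idh3a, a subunit of NAD-dependent isocitrate dehydrogenase, lower (−1.35).

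Mitochondrial carriers had 6 higher and 1 lower of 7. The lower one was Slc25a4, the ADP/ATP carrier of heart and brain (−5.02, SE 0.208, edgeR adjusted p = 3.68e-13), and its counterpart Slc25a5 was higher (2.18). The list of regulators had 7 higher and 3 lower of 12 (median 0.38). The coactivators Ppargc1a (−1.47) and Ppargc1b (−1.78) were lower in liver, and the factors Tfam (1.48), Gabpa (1.32) and Nfe2l2 (3.59) higher. Nrf1 had 0.20 and did not pass (edgeR adjusted p = 0.308). The carriers, the regulators and the single genes named from all these lists are given without the offset only. Their directions hold for the fit without it.

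The 2 brain regions were then compared with each other. No member was called between striatum and prefrontal cortex of vehicle mice, by edgeR or by DESeq2, where 13.5% of all genes were. None had an unadjusted p under 0.05 either, beside 26.3% of all genes. In the offset fit 7 members were lower in striatum at an unadjusted p under 0.05, beside 14% of all genes, and 1 was higher. The members' median log2 fold change was 0.02 and their range −0.36 to 0.79. A missed threshold does not show that levels were alike. Per kilobase, Atp5b stood at 510 ± 45.9 CPM in prefrontal cortex and 544 ± 32.1 in striatum, and Ndufs1 at 51.9 ± 2.34 and 48.9 ± 1.49 (mean ± SD, n = 4).

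Before the doses are compared, the libraries themselves need a description, because the members' median moved from library to library within every dose group. Members held 1.46 to 2.26% of a library's counts in liver, 0.894 to 1.35% in prefrontal cortex and 0.959 to 1.55% in striatum. The members' deviation, the median over members of log2 CPM minus the gene's mean in that tissue, ran from −0.54 to 0.37 in liver, −0.27 to 0.42 in prefrontal cortex and −0.21 to 0.60 in striatum. It had the same sign as that of other short genes in 19 of 20 livers, 18 of 21 cortices and 17 of 21 striata. With the cytosolic ribosomal proteins the counts were 19, 19 and 18. Single members could go against their library's median, as Sdha and Ndufs1 did in the vehicle liver of animal 8. Spearman's rho between a gene's deviation and its length, across genes of 1 library, ran from −0.244 to 0.248 in liver, −0.545 to 0.411 in prefrontal cortex and −0.613 to 0.31 in striatum.

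The striatum of animal 54 (6 mg/kg) stood apart, and so the medians and the named genes of striatum comparisons at 6 mg/kg are also given without it. Members held 1.55% of its counts and deviated by 0.60, the other short genes by 0.53 and the cytosolic ribosomal proteins by 0.61, and its rho with length was −0.613. Malat1, a long nuclear RNA, stood at 57.6 CPM there.

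**Figure D3:**
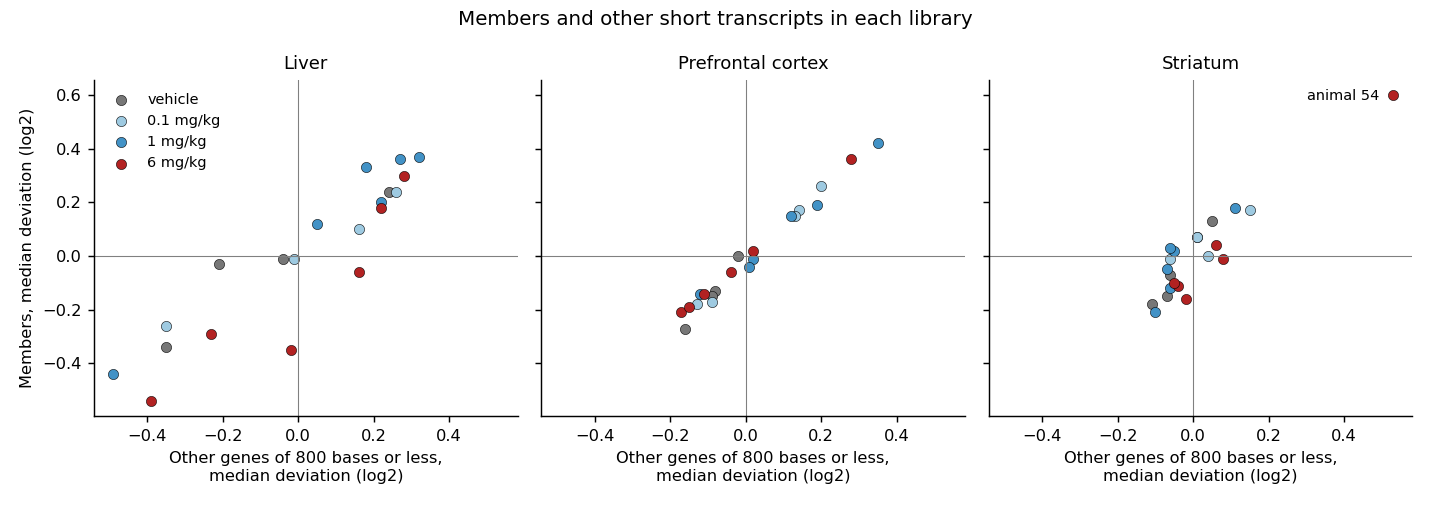
Median deviation of members (y axis, log2) against that of other genes of at most 800 bases (x axis, log2) in each library, by tissue, coloured by dose in mg/kg. Points lie along a rising band at every dose, and the striatum of animal 54 lies alone at 0.60.

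The dose comparisons asked whether PCB changed the respiratory chain's transcripts, with all dose groups of a tissue in 1 fit and levels on that tissue's own scale. In liver no member passed at 6 mg/kg against vehicle (0 of 88 with edgeR, beside 2.8% of all genes). At an unadjusted p under 0.05, 13 members were lower (14.8%) beside 11.1% of all genes, and 1 was higher beside 13.1%. DESeq2 called 3 members lower (3.41%, beside 9.72% of all genes in either direction): Ndufa4, Cox7a2 and Atp5pb. The median log2 fold change of members was −0.04, that of all genes 0.02 and that of other short genes 0.13. In the offset fit the members' median was −0.07, and 21 members (23.9%) were lower at an unadjusted p under 0.05, beside 9.61% of all genes, and 2 higher beside 12.1%.

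The values nearest the threshold were those of Atp5pb, subunit b of the stalk that holds the ATP synthase's head (Entrez 11950, chr3:105942698-105959263). It stood at 370, 364, 396 and 353 CPM in the vehicle livers of animals 8, 7, 4 and 3, and at 339, 351, 293 and 367 CPM at 0.1 mg/kg. At 1 mg/kg the lowest, median and highest livers were 193, 285 and 387 CPM, and at 6 mg/kg 110, 242 and 293 CPM. All 6 livers at 6 mg/kg were below all vehicle livers, but they were far apart, with animals 58 and 52 at 110 and 117 CPM and the other 4 from 223 CPM upward. The log2 fold change was −0.79 (SE 0.245, 95% interval −1.27 to −0.31, edgeR adjusted p = 0.0742; −0.68 in the offset fit).

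Atp5pb was also the only member called in the slope over dose rank (vehicle, 0.1, 1 and 6 mg/kg as 0 to 3), where 4.81% of all genes were. Its slope was −0.27 log2 per rank (SE 0.0776, edgeR adjusted p = 0.0488; −0.23 and 0.0642 in the offset fit). With dose in mg/kg in place of rank Atp5pb was not called (edgeR adjusted p = 0.0528), and Ndufa4 was (0.047). The call was lost when any of 16 of the 20 livers was left out, with slopes from −0.29 to −0.22. For the same slope 10 members were lower at an unadjusted p under 0.05 beside 11.4% of all genes, and 2 higher beside 14%. In the offset fit 21 were lower beside 9.33% and 5 higher beside 12.2%, and the 1 member called there was Cox7a2 (−0.21 per rank, edgeR adjusted p = 0.0465), beside 0.925% of all genes. DESeq2 called 4 members (9.86% of all genes): Atp5pb, Cox5a, Cox7a2 and Ndufa4.

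Cox5a, a nuclear-encoded subunit of complex IV, stood at 229, 207, 246 and 184 CPM in the vehicle livers and at 46.1, 134 and 183 CPM (lowest, median, highest) at 6 mg/kg. The groups did not overlap, as for Atp5pb (2 of 88 members, beside 3.5% of all genes with the dosed group below), though the highest liver of the 6 mg/kg group, animal 56, lay directly below the lowest vehicle liver. The log2 fold change was −0.84 (SE 0.298, edgeR adjusted p = 0.103; −0.74 in the offset fit).

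Ndufa4 stood at 417, 370, 316 and 295 CPM in the vehicle livers, at 248 to 378 CPM at 1 mg/kg and at 95.4, 232 and 306 CPM (lowest, median, highest) at 6 mg/kg. Its groups overlapped at the top of the 6 mg/kg range, and the log2 fold change was −0.72 (SE 0.244, edgeR adjusted p = 0.0925; −0.55 in the offset fit). Cox7a2 stood at 241, 202, 198 and 153 CPM in vehicle, at 203, 137, 184 and 242 CPM at 0.1 mg/kg, and at 83.6, 113 and 178 CPM (lowest, median, highest) at 6 mg/kg. It too overlapped, at a log2 fold change of −0.63 (standard error 0.217, edgeR adjusted p = 0.0928; −0.62 and 0.058 in the offset fit). Cox7a2 shares 2482 bases with Tmem30a.

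The 4 complex II genes varied widely at 6 mg/kg. Sdha stood at 279, 406, 419 and 423 CPM in the vehicle livers and at 76.3, 177 and 392 CPM (lowest, median, highest) at 6 mg/kg. Animals 52 and 58 were lowest at 76.3 and 92.7 CPM, animals 55 and 56 highest at 392 and 391 CPM, and those 2 lay inside the vehicle range. Sdhd stood at 157, 228, 236 and 231 CPM in vehicle and at 51.4, 88.6 and 241 CPM at 6 mg/kg, with the groups overlapping and a log2 fold change of −0.84 (standard error 0.358, edgeR adjusted p = 0.157). Sdhc stood at 198, 196, 202 and 197 CPM in vehicle and at 100 to 208 CPM at 6 mg/kg (−0.34, and −0.26 in the offset fit). Sdhb had no such spread downward, with 374, 256, 327 and 224 CPM in vehicle and 191 to 432 CPM at 6 mg/kg (0.10, and 0.01 in the offset fit).

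Animals 52 and 58 were also lowest for Atp5b and Atp5a1, the beta and alpha subunits of the ATP synthase's head. Atp5b stood at 875, 1070, 1330 and 1150 CPM in vehicle and at 253, 539 and 1140 CPM (lowest, median, highest) at 6 mg/kg, at a log2 fold change of −0.82 (standard error 0.343, edgeR adjusted p = 0.15). Leaving out animal 56 made 4 members pass as lower: Sdhd (−1.18, edgeR adjusted p = 0.0305), Cox5a (−0.99), Atp5pb (−0.90, edgeR adjusted p = 0.0305) and Atp5b (−1.08). They were 4.55% of members, beside 4.46% of all genes called lower in that fit. Leaving out animal 55 made Atp5pb pass (edgeR adjusted p = 0.0379), beside 3.25% of all genes. Atp5b and Atp5a1 were described after their values were seen.

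**Figure D4:**
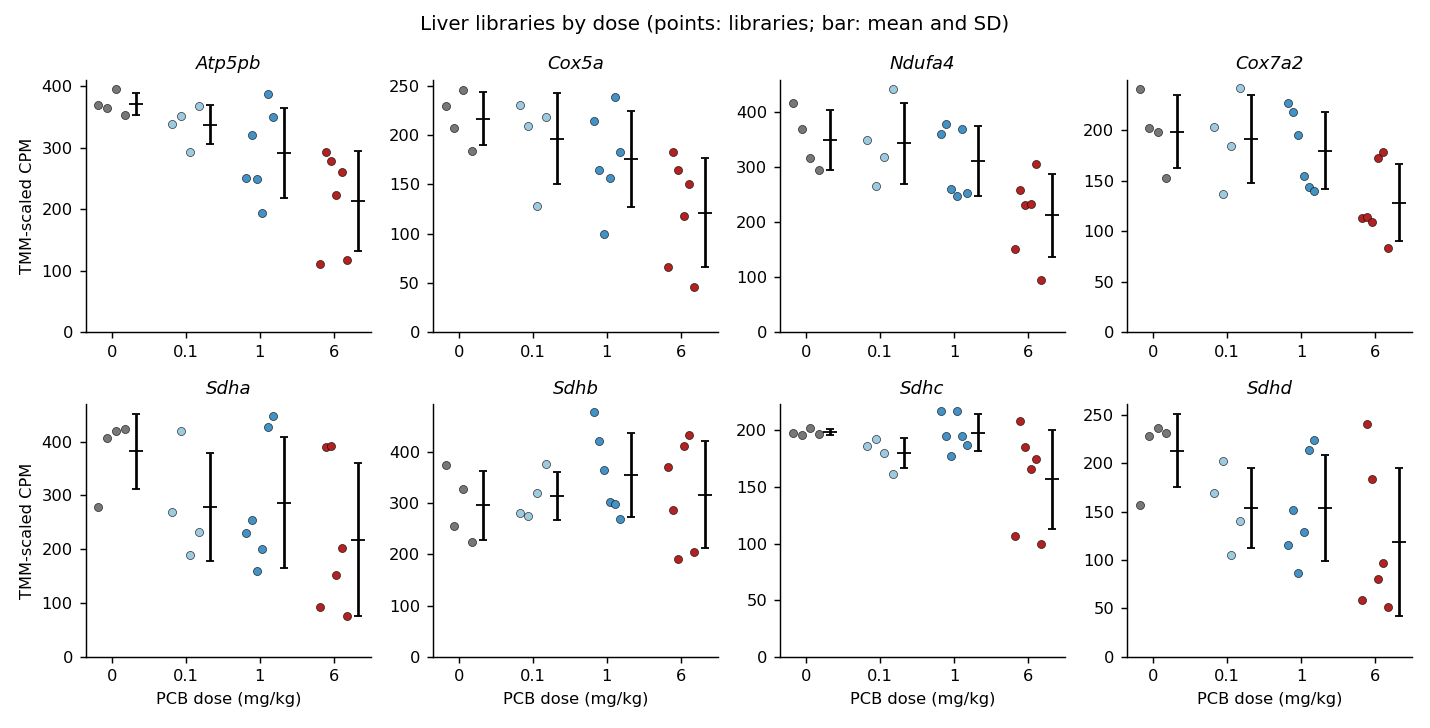
Liver level in CPM (y axis) by dose in mg/kg (x axis) of 4 members nearest the threshold and the 4 complex II genes; points are libraries and bars the mean and SD. At 6 mg/kg the points of Atp5pb, Sdha and Sdhd spread over a wider range than in vehicle, and those of Atp5pb and Cox5a lie below all vehicle points.

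Nuclear-retained RNA stood higher in the same livers at 6 mg/kg. The summed level of Malat1, Meg3, Neat1 and Snhg11 was 122 to 361 CPM in the vehicle livers, 202 to 626 CPM at 0.1 mg/kg, 119 to 1340 CPM at 1 mg/kg and 460 to 1010 CPM at 6 mg/kg, where it did not overlap vehicle. The hepatocyte marker list summed to 73000 to 120000 CPM at 6 mg/kg, around the vehicle range. Their part in the members' values was not tested.

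By group at 6 mg/kg in liver, the median log2 fold change was −0.57 for complex II (−0.50 in the offset fit), −0.13 for the ATP synthase (−0.17), −0.13 for complex III (−0.21), 0.07 for complex I (0.03), −0.04 for its assembly factors (0.12) and −0.02 for complex IV (−0.11). None of their members passed the test. Of the other lists, the citric acid cycle had a median of −0.31 (−0.18 in the offset fit) with 0 passing, the mitochondrial ribosomal proteins −0.11 (−0.01) with 1 lower of 77, the cytosolic ribosomal proteins −0.11 (−0.05) with 0, and the assembly factors outside the member names 0.07 with 1 lower of 36. Ndufa4l2 was the member with the smallest unadjusted p among the higher ones at 6 mg/kg (log2 fold change 0.91, SE 0.327, edgeR adjusted p = 0.107; 0.69 in the offset fit).

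The lower doses gave no calls in liver. At 1 mg/kg against vehicle edgeR called 0 members (0% of all genes), and 3 were higher at an unadjusted p under 0.05 beside 5.14% of all genes. The members' median was 0.24, with 67 of 88 positive, beside medians of 0.22 for other short genes and 0.02 for all genes. It was 0.07 for members in the offset fit. Ndufa4l2 stood at 3.93, 2.01, 1.91 and 2.32 CPM in vehicle and 1.92, 4.85 and 6.93 CPM (lowest, median, highest) at 1 mg/kg, overlapping (0.88, and 0.62 in the offset fit). Ndufs7, a core subunit at the ubiquinone site of complex I, stood at 206, 127, 182 and 117 CPM and 116, 239 and 317 CPM, also overlapping (0.56, and 0.26 in the offset fit).

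At 0.1 mg/kg against vehicle, 0 members were called (0.0154% of all genes) and 0 had an unadjusted p under 0.05 (4.1%). Ndufaf1, an early assembly factor, had 17.9, 25.4, 23 and 22.5 CPM in vehicle and 17.1, 17.5, 19.2 and 18.3 CPM at 0.1 mg/kg, with vehicle animal 8 inside the dosed range (−0.30). Ndufa4l2 stood at 3.12 to 4.20 CPM at 0.1 mg/kg, where it overlapped vehicle (0.56). At 6 against 0.1 mg/kg, 0 members were called (0.0386%) and 8 were lower at an unadjusted p under 0.05 beside 6.1% of all genes (12 beside 4.87% in the offset fit). The 8 were led by Ndufa4 (−0.69, and −0.49 in the offset fit) and Uqcrh (−0.55, and −0.46), the hinge protein of complex III. DESeq2 called no member in these 3 contrasts.

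In prefrontal cortex the members' median lay above 0 at every dose, as that of other short genes did, and no member passed. With 1 surrogate variable in the fit, the medians at 0.1 and 1 mg/kg were −0.01 and 0.04. At 6 mg/kg edgeR called 0 of 91 members (0% of all genes) and DESeq2 0 of 77 (0.435%). At an unadjusted p under 0.05, 7 members were higher beside 4.28% of all genes, and 13 were in the offset fit beside 4.1%. The members' median log2 fold change was 0.10, beside 0.08 for other short genes, and 0.02 in the offset fit.

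Ndufaf4 (Entrez 68493), an assembly factor of complex I whose promoter is shown above, had the smallest p. It stood at 22.1, 20.5, 23.6 and 22.4 CPM in vehicle cortices and at 26.6, 25.1, 31.6, 32.5 and 27.9 CPM at 0.1 mg/kg. At 1 mg/kg the lowest, median and highest were 20.6, 26 and 30.6 CPM, and at 6 mg/kg 27.7, 29 and 32.6 CPM. All cortices at 0.1 and 6 mg/kg were above all vehicle ones, while those at 1 mg/kg overlapped them. At 6 mg/kg the log2 fold change was 0.41 (SE 0.107, 95% interval 0.20 to 0.62, edgeR adjusted p = 0.251; 0.31 in the offset fit). With 1 surrogate variable it passed (0.42, edgeR adjusted p = 0.0461), where 0.559% of all genes did. Its transcript of 3632 bases is the longest of the members.

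Ndufab1, the mitochondrial acyl carrier protein that also sits in complex I, stood at 55.9, 49.8, 58.7 and 47.6 CPM in vehicle and 58.9, 62.5 and 78.4 CPM (lowest, median, highest) at 6 mg/kg (0.30, SE 0.11, edgeR adjusted p = 0.411). Atp5pb stood at 197, 183, 198 and 199 CPM and at 209, 219 and 277 CPM (0.26, SE 0.0972, edgeR adjusted p = 0.419). Ndufb5, of complex I's membrane arm, stood at 71.9, 69.6, 74.4 and 72.4 CPM and at 77.4, 84.3 and 106 CPM (0.28, SE 0.118, edgeR adjusted p = 0.47; 0.18 in the offset fit). In all 3 the dosed cortices lay above the vehicle ones without overlap, by a small margin at the low end. Together with Ndufaf4 these were the 4 members whose groups did not overlap (4.4%), beside 1.19% of all genes with the dosed group above.

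At 1 mg/kg against vehicle in prefrontal cortex, 88 of 91 members had a log2 fold change above 0, beside 7558 of all 14838 genes tested. The median was 0.25 (0.30 for short members, 0.18 for longer ones), 0.21 for other short genes, 0.26 for cytosolic ribosomal proteins (80 of 81 above 0) and 0.09 for members in the offset fit. By group it was 0.30 for complex IV (0.12 in the offset fit), 0.27 for complex I (0.11), 0.23 for the ATP synthase (0.07), 0.19 for complex III (0.05), 0.18 for the assembly factors (0.04) and 0.14 for complex II (0). EdgeR called 0 members (0% of all genes). At an unadjusted p under 0.05, 24 were higher (26.4%) beside 4.28% of all genes, and in the offset fit 11 were (12.1%) beside 3.51%.

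Atp5k, subunit e of the ATP synthase's membrane part, stood at 33.3, 26.7, 24.7 and 32.6 CPM in vehicle and at 35.0, 49.3 and 84.2 CPM (lowest, median, highest) at 1 mg/kg. It stood at 36.0, 49.2, 53.9, 44.7 and 40.4 CPM at 0.1 mg/kg and at 28.8, 37.9 and 43.1 CPM at 6 mg/kg. The cortices at 0.1 and 1 mg/kg were all above vehicle, and those at 6 mg/kg overlapped it. The log2 fold change at 1 mg/kg was 0.83 (SE 0.184, edgeR adjusted p = 0.588; 0.63 in the offset fit). Ndufaf3, which works with Ndufaf4, stood at 30.7, 31.5, 24 and 30.7 CPM in vehicle and at 34.9, 37.8 and 45.7 CPM at 1 mg/kg, without overlap (0.41, SE 0.13, edgeR adjusted p = 0.588; 0.27 in the offset fit).

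At 0.1 mg/kg in prefrontal cortex the median was 0.20 with 86 of 91 above 0, beside medians of 0.15 for other short genes and 0.01 for all genes. It was 0.07 for members in the offset fit. No member was called (0% of all genes). At an unadjusted p under 0.05, 10 were higher beside 3.4% of all genes, and 7 were in the offset fit beside 4%, with Ndufaf4 (0.38) and Atp5k (0.61) nearest. At 6 against 0.1 mg/kg, 0 members were called (0.108%) and 5 were lower at an unadjusted p under 0.05 beside 6.17% (11 beside 6.5% in the offset fit). Cox5b, a complex IV subunit that binds zinc, stood at 116, 138, 151, 163 and 116 CPM at 0.1 mg/kg and at 61, 97.6 and 149 CPM (lowest, median, highest) at 6 mg/kg, overlapping (−0.48). Ndufa3, an accessory subunit of complex I, was next (−0.36). For the slope over dose rank 0 members were called (0.0202%) and 7 were higher at an unadjusted p under 0.05 beside 4.21% (12 beside 4.32% in the offset fit), led by Ndufab1 and Ndufaf4 at 0.10 log2 per rank each (0.09 and 0.06 in the offset fit). DESeq2 called no member in these contrasts either.

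**Figure D5:**
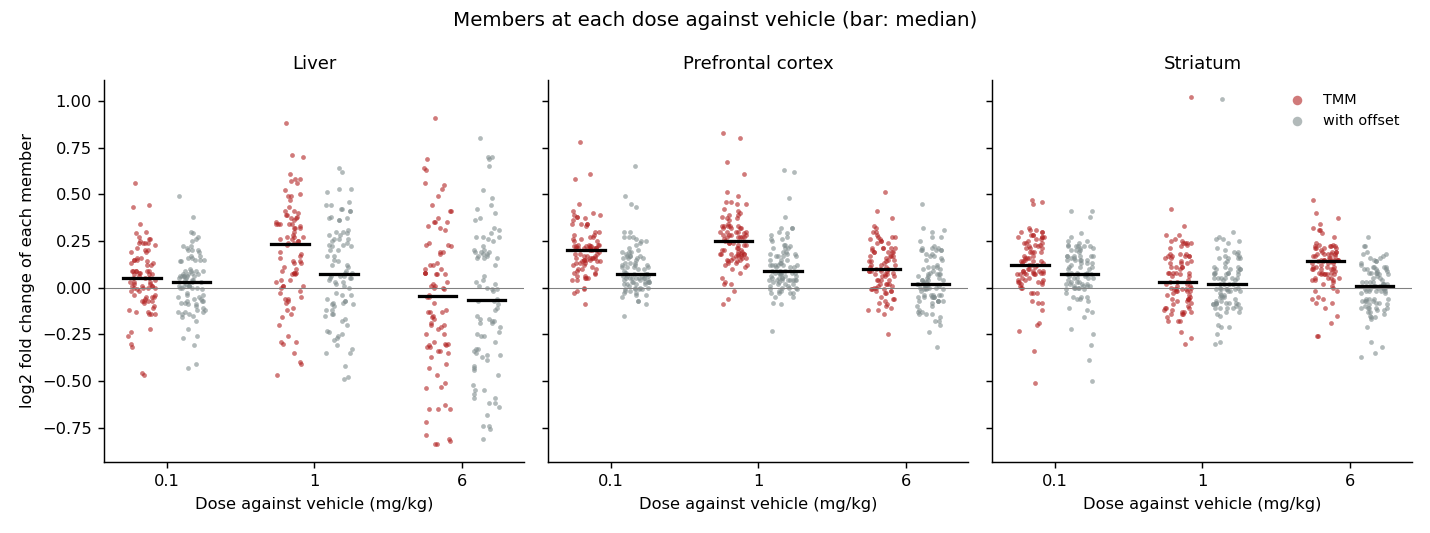
Log2 fold change against vehicle of each member tested (y axis) at 0.1, 1 and 6 mg/kg (x axis) in the 3 tissues, without (red) and with (grey) the offset for length and GC content; bars are medians. In prefrontal cortex at 1 mg/kg the median is 0.25 without and 0.09 with the offset.

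In striatum no member passed at 6 mg/kg, and the members' median rested on 1 library. EdgeR called 0 of 91 members (0% of all genes) and DESeq2 0 of 84 (0.249%), and 4 were higher at an unadjusted p under 0.05 beside 7.48% of all genes. In the offset fit none was higher and 3 were lower beside 4.41%. The median log2 fold change was 0.14 with 79 of 91 above 0, beside medians of 0.14 for other short genes and 0.01 for all genes. The members' median was 0.01 in the offset fit, and 0.01 without animal 54.

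Among the members nearest the threshold in striatum were Ndufs7, Ndufb8 and Cox6a1. Ndufs7 stood at 122, 138, 103 and 136 CPM in vehicle and at 136, 144 and 246 CPM (lowest, median, highest) at 6 mg/kg, where animal 54 was the highest. Its log2 fold change was 0.37 (SE 0.138, edgeR adjusted p = 0.228; 0.08 in the offset fit), and 0.21 without that library. Ndufb8, of complex I's membrane arm, stood at 105, 109, 97.9 and 108 CPM and at 111, 121 and 181 CPM. It was the only member whose groups did not overlap, beside 1.67% of all genes with the dosed group above (0.31, SE 0.123, edgeR adjusted p = 0.245), and had 0.10 in the offset fit and 0.19 without animal 54.

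Cox6a1 stood at 353, 405, 257 and 368 CPM in vehicle and 370, 427 and 677 CPM at 6 mg/kg (0.40, SE 0.161, edgeR adjusted p = 0.249). It had 0.14 in the offset fit and 0.26 without animal 54. Cox6a1 and Ndufs7 overlapped their vehicle groups. Markers of choroid plexus, a tissue next to the striatum, summed to 14.1 to 648 CPM in vehicle striata and 8.17 to 2540 CPM at 6 mg/kg, and their part in these values was not tested.

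The other striatum contrasts also called no member. At 1 mg/kg against vehicle, edgeR called 0 (0% of all genes), and 3 had an unadjusted p under 0.05 beside 7.36% of all genes (7 beside 5.7% in the offset fit). Atp5o stood at 5.38, 7.11, 10.3 and 10.9 CPM in vehicle and at 7.66, 14 and 41.9 CPM (lowest, median, highest) at 1 mg/kg. Animal 41 held the highest value, and the log2 fold change was 1.02 with it and 0.55 without it. The other member nearest the threshold was Uqcrq (−0.27). At 0.1 mg/kg 0 were called (0%) and 2 were higher at an unadjusted p under 0.05 beside 1.23%: Atp5l (0.30) and Ndufa3 (0.45). With the offset 8 were higher beside 2% of all genes. The median was 0.12 with 78 of 91 above 0, beside medians of 0.06 for other short genes and 0 for all genes. It was 0.07 for members in the offset fit.

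At 6 against 0.1 mg/kg in striatum edgeR called 0 members beside 2.91% of all genes, and 5 were higher at an unadjusted p under 0.05 beside 11.6%. The offset fit turned the balance, with 3 higher beside 6.48% and 18 lower beside 6.87%, and called 1 member lower (Atp5d), beside 0.172% of all genes. DESeq2 called 2 (8.6% of all genes): Cox6a1 and Cyc1, the cytochrome that hands electrons from complex III to cytochrome c. Cyc1 had a log2 fold change of 0.33 (edgeR adjusted p = 0.0751), 0.14 in the offset fit and 0.22 without animal 54. Cox6a1 had 0.47 (edgeR adjusted p = 0.0761), 0.20 and 0.33 in the same order. The members' median of −0.01 was −0.14 without animal 54. For the slope over dose rank 0 were called (0%) and 2 were higher at an unadjusted p under 0.05 beside 7.05%: Cox6a1 (0.13 per rank) and Ndufs7 (0.11), which had 0.05 and 0.02 in the offset fit and 0.07 and 0.05 without animal 54. With the offset none was higher and 4 were lower beside 4.41%. In the contrasts of 1 and of 0.1 mg/kg with vehicle and in the slope, DESeq2 called none.

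Whether the response at 6 mg/kg differed between tissues was tested as an interaction, and no member passed with edgeR. Between liver and prefrontal cortex 0.899% of all genes passed. At an unadjusted p under 0.05 there were 11 members, 10 of them with the lower response in liver, beside 20% of all genes (12 lower beside 7.66% lower in the offset fit), and DESeq2 called Atp5pb, Cox7a2 and Ndufb5 (6.48% of all genes). Cox7a2 had a difference of log2 fold changes of −0.92 (SE 0.27, edgeR adjusted p = 0.0876; −0.83 in the offset fit) and Atp5pb of −1.07 (SE 0.318, edgeR adjusted p = 0.0906; −0.89). Atp5pb thus had −0.79 in liver and 0.26 in prefrontal cortex without the difference passing.

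Between liver and striatum 0.0277% of all genes passed. At an unadjusted p under 0.05, 13 members had the lower response in liver beside 6.43% (13 beside 6.72% in the offset fit). They were led by Ndufb8 (−0.83, and −0.74 in the offset fit) and Ndufa4 (−0.91, and −0.71). Without the striatum of animal 54 the 2 had −0.71 and −0.76. Between striatum and prefrontal cortex 0% passed, and 2 members were lower at an unadjusted p under 0.05 beside 3.66%: Ndufaf4 (−0.52, and −0.25 in the offset fit) and Ndufaf2 (−0.59, and −0.53). With the offset 9 were lower, beside 2.41%, and 2 higher. Without the striatum of animal 54 Ndufaf4 had −0.62 and Ndufaf2 −0.71. The members' median difference was −0.20 for liver against prefrontal cortex (−0.09 in the offset fit), −0.17 for liver against striatum (0 in the offset fit) and 0.01 for striatum against prefrontal cortex (−0.01). Without the striatum of animal 54 the last 2 medians were −0.03 and −0.11. DESeq2 called no member in these last 2 interactions.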

How the data were processed

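RNA was sequenced from liver, prefrontal cortex and striatum. The deposited values are whole-number read counts per Entrez gene, not normalized. The submitters' processing notes name FastQC, HISAT2 and build mm10, and the labels' protocols name TRIzol with RNeasy columns. Whether poly(A) capture or rRNA removal was used, and the counting tool, are not given in the sources used here.

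Symbols came from RefSeq (GRCm38.p6) and transcript lengths and GC content from GENCODE vM21. Counts were filtered (filterByExpr), TMM-scaled and tested with edgeR 4.0.16 (robust quasi-likelihood) in R 4.3.3, Benjamini-Hochberg adjusted over all genes at 0.05. Standard errors are the log2 fold change divided by the root of F, and the prior count for log2 CPM was 2. The offset was a spline of 4 degrees of freedom each in length and GC content per library. Alternatives were DESeq2 1.42.0, 1 surrogate variable (sva 3.50.0), median-ratio scaling, other filters, the 2 groups alone, dose in mg/kg, an animal-number block and leaving out each library. The procedure was checked on artificial counts.

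Genes named are, at 6 mg/kg, the members that passed (up to 15 a direction) or else the 4 with the smallest p. In other dose contrasts up to 4 that passed, or else 2, are named, in vehicle contrasts the 10 largest a direction, and always the isoform sets and complex II. One member that the rule names is not reported here. Other genes named were chosen after their values were seen. The members and lists were chosen with earlier results of these data known.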

Additional observations from a re-analysis of the deposited data

Results flagged for a closer look

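These values each lay far from the rest of their dose group, by a gap test over groups of 4 to 10 libraries. In 48 groups checked, chance alone would give about 2.4.

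In striatum at 6 mg/kg, animal 54 was set apart in the members' share of counts (1.55%, next 1.16%), in the members' deviation (0.60, next 0.04), and in Ndufs7 (246 CPM, next 159), Ndufb8 (181 CPM, next 137) and Cox6a1 (677 CPM, next 466). In liver at 1 mg/kg, animal 41 was low, with a members' deviation of −0.44, the next being 0.12. In vehicle prefrontal cortex, animal 7 had the lowest Atp5pb level at 183 CPM, the next being 197 CPM. The causes were not tested.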

How the results depend on the processing

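Of the 3 members that changed sign while called under the offset in each vehicle contrast of liver, 1 was Cox7a2l. It had −0.61 against prefrontal cortex and −0.71 against striatum. The others were 1 ATP synthase gene and 1 assembly factor against prefrontal cortex, and 1 complex I gene and 1 assembly factor against striatum. Values not called in at least 1 of the fits also changed sign: under the offset Ndufaf3 (−0.69) and Cox8a (0) against prefrontal cortex and Ndufa4l2 against striatum (−0.24), with 1 surrogate variable Sdhb in liver at 6 mg/kg (−0.09), and on leaving out 1 library Sdhb (−0.02 to 0.23) and Ndufs1 (−0.11 to 0.09). Outside the leave-one-out settings, 135 counts of called members stayed within 1.5 times and 12 did not, and 137 medians moved by less than the SD between libraries of a group and 4 by more. In liver at 6 mg/kg, 1 surrogate variable gave 1 call (Cox7a2; 2.08% of all genes) and DESeq2 3, beside 0. The liver slope gave 0 with 1 surrogate variable (2.12% of all genes), 0 with no filter (2.55%), 4 with DESeq2 and 3 over mg/kg with the offset (1.32%), beside 1 (Atp5pb), and over mg/kg alone 1 (Ndufa4; 3.72%). In prefrontal cortex at 6 mg/kg, 1 surrogate variable gave 1 (Ndufaf4, edgeR adjusted p = 0.0461), and it moved the members' medians at 1 and 0.1 mg/kg to 0.04 and −0.01. In striatum, 6 against 0.1 mg/kg gave 2 with 1 surrogate variable (7.88% of all genes), 2 with DESeq2 and 1 with the offset (Atp5d, lower), and the slope over mg/kg gave 4 (Cox6a1, Cyc1, Ndufb8 and Ndufs7; 12.3% of all genes), none of them with the offset (edgeR adjusted p of Cox6a1 0.204 and of Ndufs7 0.569). DESeq2 gave 3 in the interaction of liver and prefrontal cortex. The offset moved the vehicle medians to 0.52 and 0.61. Leaving out 1 library gave 0 to 4 calls in liver at 6 mg/kg, 0 to 4 in its slope (10.2% of all genes where 4), 0 to 3 in the interaction of liver and prefrontal cortex (6.28% where 3), and 0 to 1 between the vehicle brain regions (Ndufaf8 without striatum animal 3; 10.2%). The causes were not tested.

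Samples of the same number deviated together little (mean r 0.00403 for liver and prefrontal cortex, 0.00471 for liver and striatum, 0.0942 for striatum and prefrontal cortex). Samples of different numbers had −0.000919, −0.00128 and −0.02 in the same order, so same-number brain samples ran together more on average than others. Not every pair was over 0.1, so the number was not taken to pair them. This does not show that they come from different animals. With that number as a block, 88 members were called in each liver contrast of vehicle mice, 83 higher and 5 lower against prefrontal cortex (39.1% and 45.3% of all genes) and 82 and 6 against striatum (39.1% and 45.2%), with 0 between the brain regions (11.9%) and 0 in each of the 3 interactions, with or without the offset. The blocked liver counts are over all 91 members tested, including those that passed the filter on low counts through brain alone. At these depths the members with a few counts per library could not be told from absent ones.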
